A study of Homo sapiens with 7 samples.

Results

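The ZBTB genes encode transcription factors that pair an N-terminal BTB domain with zinc fingers, and their transcripts were followed in heated HSC-3 cells. The members are defined by their symbols, not by their values: every gene whose current symbol is ZBTB followed by a number and at most 1 letter, each read through 1 probe set, the one of highest mean log2 intensity over the 7 arrays among those matching a single gene. This gave 41 of the 19775 genes that had a single-gene probe set. The HSC-3 line is human and was established from a squamous carcinoma of the mouth. Cells were heated at 42 °C or at 44 °C for 90 min and collected after 0, 6 or 12 h back at 37 °C, and the control cells stayed at 37 °C without heat. The sample labels give the control no recovery time. In differences of the 6 and 12 h arrays from it, time in culture and recovery from heat cannot be told apart. Each of these 7 conditions was read on 1 Affymetrix whole-genome array, so no difference below has a replicate check, no p-value is given, and the number of arrays limits the precision. In such bulk RNA, fewer cells of a type and less RNA per cell cannot be told apart.

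In a ZBTB protein the BTB domain, also called POZ, forms dimers and recruits corepressor complexes such as NCoR with histone deacetylases, or the ubiquitin ligase scaffold CUL3. The zinc fingers read DNA. Many members repress genes of cell cycle arrest, differentiation or metabolism, some bind methylated CpG, and several take part in carcinoma growth or lineage choice in blood cells.

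Values are deposited probe set intensities on a linear scale, and intensities of different probe sets do not order the genes by transcript level. A floor of 21.4, the median of all values, stands for the lowest usable signal, and a fold against an array below it is given as "at least". The arrays differed in overall level: across 20902 probe sets never below the floor, heated arrays lay between -0.35 (44 °C, 12 h) and 0.39 (44 °C, 0 h) log2 units from the control in the median. A gene was therefore called, and is described as having risen or fallen, only where it differed by at least 2-fold the same way under 3 scalings, which were the deposited values, quantile normalization, and a shift of each array by its median. Folds are as deposited unless another scaling is named. Of the epithelial markers KRT5, KRT14, CDH1 and EPCAM had a value, each above the floor on all 7 arrays, with summed intensities of 25179 to 30979 at 44 °C and 22659 to 27063 at 42 °C, against 22335 in the control. KRT17 and TP63 had no single-gene probe set. Of 11 markers of fibroblasts, leukocytes and endothelium with a value, 3 to 5 reached the floor on an array, and their summed intensity was 406 to 501 on the 44 °C arrays and 323 to 370 on the 42 °C arrays, against 284 in the control. LUM, PTPRC, VWF and CDH5 stayed below the floor on all 7 arrays. COL1A1 was 2.20-fold higher at 44 °C, 6 h, and CD14 was at least 2.04-fold higher at 44 °C, 12 h. Their part in the results was not tested.

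The sequences before the start sites are shown for 4 members, to set heat shock motifs beside their values. They belong to genes whose changes recur in the results: ZBTB14 and ZBTB26 fell most at once after 42 °C, and ZBTB24, ZBTB26 and ZBTB38 were lower at 44 °C than at 42 °C after 6 h. Each is the 250 bases before an annotated start, from RefSeq on build GRCh38.p14: ZBTB14 (chr18:5297054-5297303, minus strand), ZBTB24 (chr6:109483220-109483469, minus strand), ZBTB26 (chr9:122931513-122931762, minus strand) and ZBTB38 (chr3:141368254-141368503, plus strand). Capitals mark pairs of heat shock units, GAANNTTC or TTCNNGAA, the inverted repeats that heat shock factors read. ZBTB14 has 3 annotated windows and ZBTB38 has 10, and the window with the most pairs is shown. ZBTB26 has 2 windows, of which the upstream one is shown, and ZBTB24 has 1.
ZBTB14: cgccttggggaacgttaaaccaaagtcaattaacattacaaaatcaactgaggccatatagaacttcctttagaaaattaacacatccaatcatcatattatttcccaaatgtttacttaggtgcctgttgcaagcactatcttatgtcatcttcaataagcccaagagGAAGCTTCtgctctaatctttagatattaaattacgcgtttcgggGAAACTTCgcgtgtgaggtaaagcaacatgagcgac
ZBTB24: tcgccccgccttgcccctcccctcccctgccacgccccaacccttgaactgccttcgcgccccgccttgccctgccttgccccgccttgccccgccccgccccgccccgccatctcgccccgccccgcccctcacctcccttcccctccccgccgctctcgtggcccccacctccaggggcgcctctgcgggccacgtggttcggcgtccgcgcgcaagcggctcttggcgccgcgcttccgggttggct
ZBTB26: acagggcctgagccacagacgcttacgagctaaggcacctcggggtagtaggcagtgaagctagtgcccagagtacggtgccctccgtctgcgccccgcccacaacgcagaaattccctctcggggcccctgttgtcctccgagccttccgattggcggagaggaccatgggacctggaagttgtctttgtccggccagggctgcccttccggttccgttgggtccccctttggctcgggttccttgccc
ZBTB38: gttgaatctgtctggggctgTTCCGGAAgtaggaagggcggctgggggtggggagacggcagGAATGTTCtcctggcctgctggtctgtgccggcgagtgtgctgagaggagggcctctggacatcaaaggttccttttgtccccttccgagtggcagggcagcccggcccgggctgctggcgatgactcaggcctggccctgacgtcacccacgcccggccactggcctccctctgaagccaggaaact
The ZBTB14 window holds 2 pairs of the first kind, and the ZBTB38 window holds 1 of each kind. The windows of ZBTB24 and ZBTB26 hold none. A match is a description of these letters and not a bound site.

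Promoter windows of 300 bases (250 before to 50 after the start) were found for 35 of the 41 members, in 68 windows, 13 members having several. ZBTB6, ZBTB10, ZBTB16, ZBTB17, ZBTB40 and ZBTB41 had no entry. On either strand, GAANNTTC occurred in 6 of the 68 windows (8.82%, in ZBTB14, ZBTB20, ZBTB25 and ZBTB38), against 6.77% of 35116 windows of all genes. TTCNNGAA occurred in 8 (11.8%, in ZBTB4, ZBTB18, ZBTB20, ZBTB38 and ZBTB43), against 7.74% of all windows. Pairs of the 2 kinds overlap where units alternate, and the full 3-unit heat shock element was in 0 member windows, against 0.490% of all windows. The AP-1 motif TGANTCA was in 6 member windows (8.82%), against 7.71% of all, and the Kaiso motif TCCTGCNA, read by ZBTB33, was in 5 (7.35%), against 4.69%. Windows of 1 gene can overlap, so they are not independent. The median GC content was 62.3% in member windows and 58.7% in all windows.

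Across the family, ZBTB transcripts stood above the control 6 h after 42 °C and below it 6 and 12 h after 44 °C. Of the 41 members, 36 reached the floor on at least 1 array and 28 did so on all 7, and the counts and medians that follow are over the 36. As deposited, the 42 °C arrays (0, 6 and 12 h) lay -0.23, 0.59 and 0.27 log2 units from the control in the member median, against -0.07, 0.13 and 0.09 for all 14973 genes that reached the floor. At 44 °C it was 0.16, -0.54 and -0.72, against 0.38, 0.00 and -0.16 for all genes. After the median shift, which sets the median of all genes to 0 in these comparisons, the member medians were -0.11, 0.38 and 0.12 at 42 °C and -0.16, -0.47 and -0.41 at 44 °C. The sign at 44 °C, 0 h thus turned with the scaling, and at the other 5 conditions it was the same under all 3. The numbered ZNF genes, a larger group of zinc finger genes of which 367 reached the floor, had medians of the same signs with 1 exception. At 42 °C, 12 h the ZNF median was 0.00 after the median shift. As deposited the ZNF medians were 0.43 at 42 °C, 6 h and -0.50 and -0.55 at 44 °C, 6 and 12 h. After the median shift they were 0.22, -0.44 and -0.24, so the pattern was not particular to ZBTB genes.

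**Figure D1:**
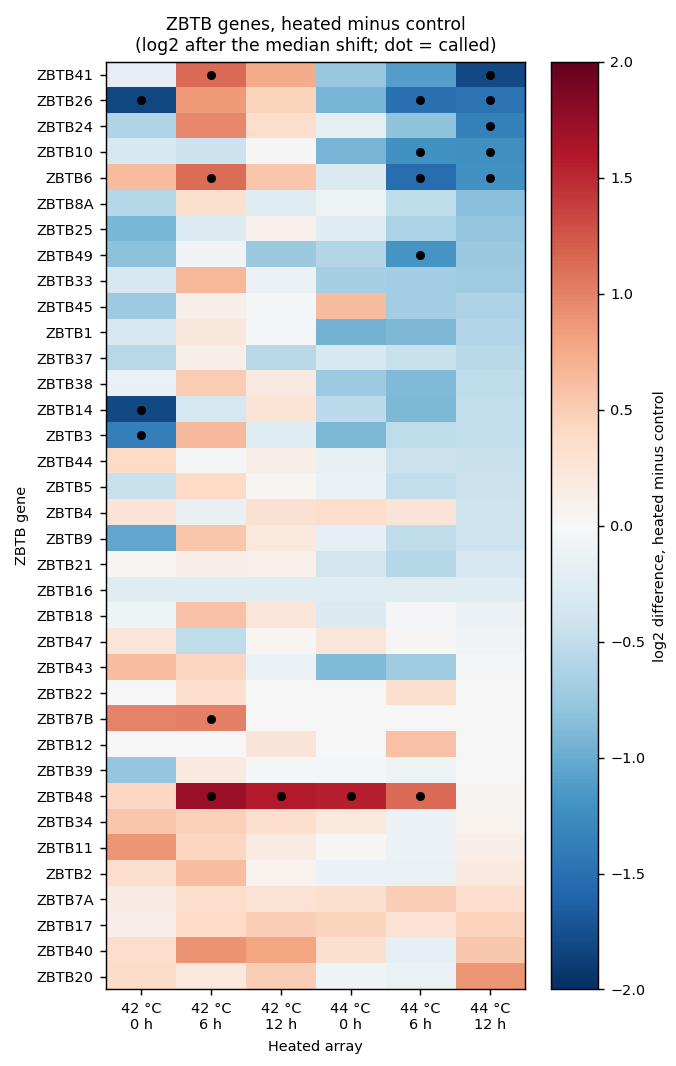
Log2 difference of 36 ZBTB genes (rows, ordered by their value at 44 °C, 12 h) between each of 6 heated arrays (columns) and the control array, after the median shift, with red for higher and blue for lower. Black dots mark calls, at least 2-fold under all 3 scalings, and the blue block at top right holds ZBTB41, ZBTB26, ZBTB24, ZBTB10 and ZBTB6.

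Calls were made for 13 of the 36 members in at least 1 of 9 comparisons, and 23 had none, beside 18% of all measured genes with a call in any comparison. At 42 °C, 0 h, 0 members rose and 3 fell (8.33%), beside 1.46% and 3.07% of all genes. At 42 °C, 6 h, 4 rose (11.1%) and 0 fell, beside 1.68% and 1.92%. Among these 4 was ZBTB7B, which entered the 36 only through its 42 °C, 0 and 6 h arrays. With members kept by a mean at or above the floor, an alternative chosen after seeing the data, 3 rose there. At 42 °C, 12 h, 1 rose and 0 fell, beside 1.04% and 1.33%, and at 44 °C, 0 h, 1 rose and 0 fell, beside 2.09% and 0.668%. These last counts of 0 and 1 are near the background. At 44 °C, 6 h, 1 rose and 4 fell (11.1%), beside 1.49% and 2.61%, and at 44 °C, 12 h, 0 rose and 5 fell (13.9%), beside 1.7% and 3.52%. The 367 numbered ZNF genes that reached the floor had 10.6% lower at 42 °C, 0 h, 5.72% higher at 42 °C, 6 h, and 12.5% and 12.8% lower at 44 °C, 6 h and 12 h.

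The temperatures were also compared directly, which does not involve the control, and more members were called at 6 h than at 0 or 12 h. With no floor this order did not hold, since 9 members were called lower at 6 h and 9 at 12 h, with medians of -1.01 and -1.08. At 44 °C, 6 h, 9 of 36 members were lower than at 42 °C, 6 h (25.0%) and 0 were higher, beside 4.54% and 1.68% of all genes. The 9 include ZBTB7B, which reached the floor only at 42 °C, 0 and 6 h. With members kept by a mean at or above the floor, 8 were lower. As deposited 32 of the 36 lay below 0 and 3 above, with a median of -1.01, against -0.06 for all genes. After quantile normalization and the median shift, 30 and 31 lay below 0, with medians of -0.61 and -0.72 where all genes had 0.00. At 12 h, 6 members were lower at 44 °C than at 42 °C (16.7%) and 0 higher, beside 3.71% and 1.76%, with a median of -0.89 as deposited and -0.43 and -0.39 under the other scalings. At 0 h, 2 members were higher at 44 °C and 0 lower, beside 2.83% and 0.608%, and the median of 0.43 as deposited was 0.00 under both other scalings. The ZNF genes had medians of -0.90, -0.56 and -0.63 at 6 h under the 3 scalings, and 109 of the 367 were lower at 44 °C (29.7%), while at 12 h 13.1% were. The difference between ZBTB and ZNF genes was not tested.

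**Figure D2:**
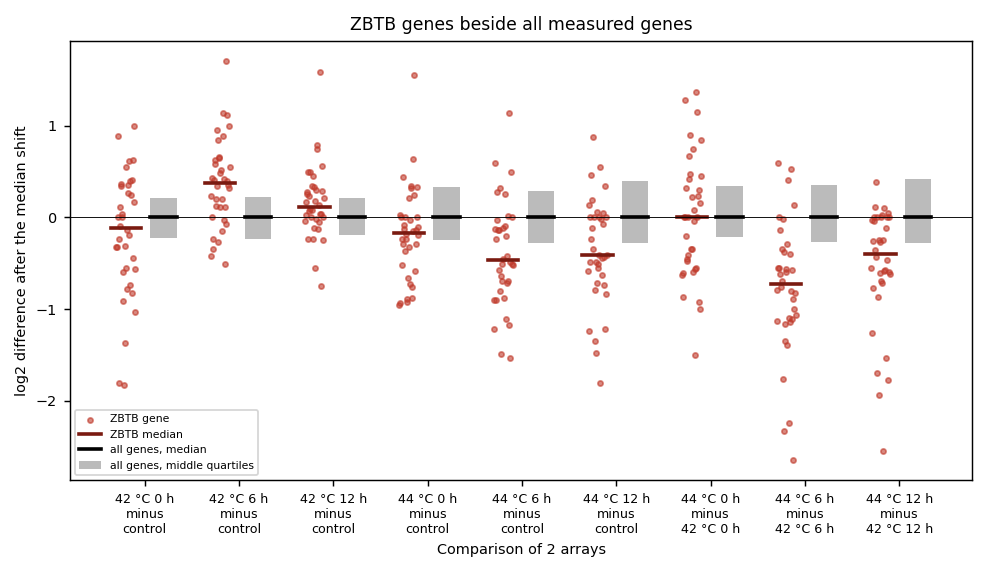
Log2 difference after the median shift (vertical axis) in each of 9 comparisons of 2 arrays (horizontal axis), with 1 red point per ZBTB gene and a dark red bar at their median, beside a grey box over the middle quartiles (lower to upper quartile) and a black bar at the median of all measured genes. At 44 °C minus 42 °C, 6 h, the ZBTB median of -0.72 lies below the grey box.

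**Figure D3:**
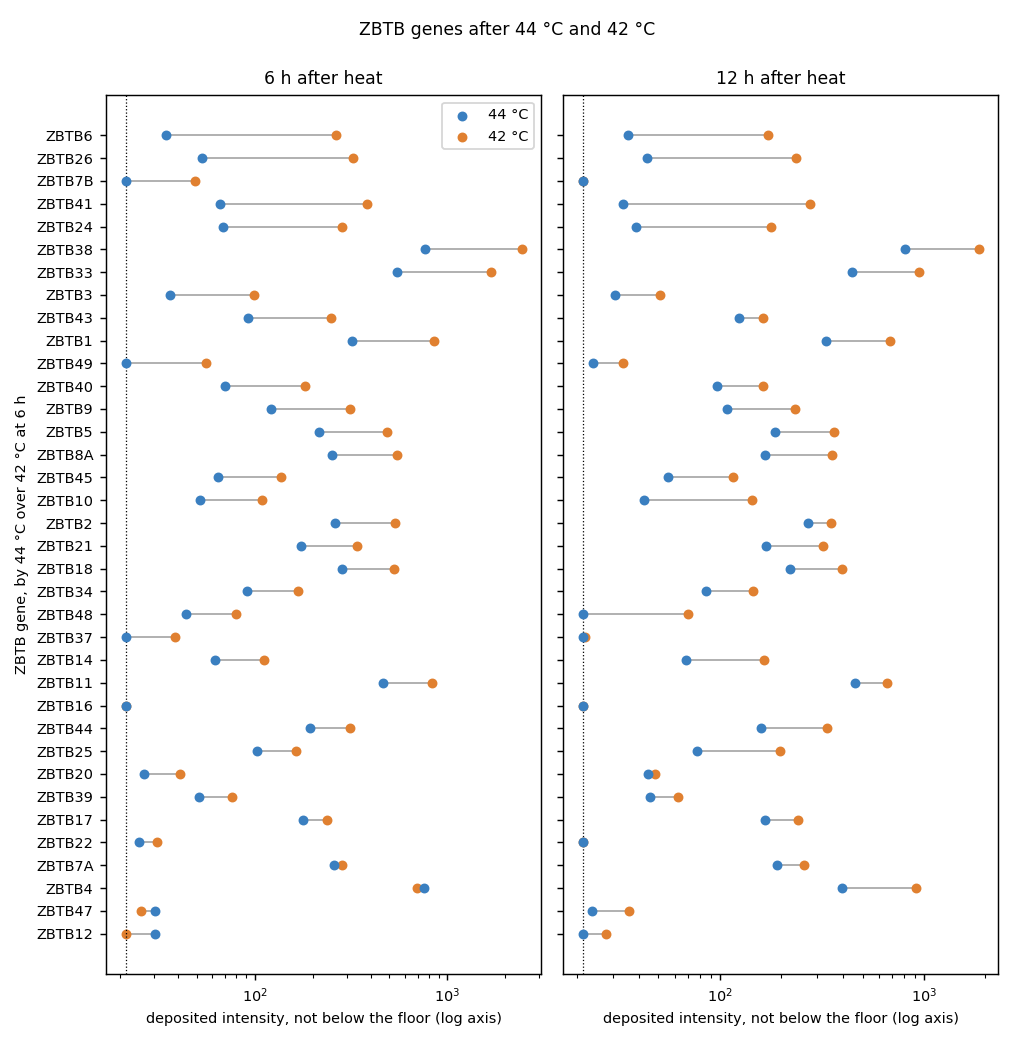
Intensity of 36 ZBTB genes on a log axis, with values below the floor (dotted line) set to it, at 44 °C (blue) and 42 °C (orange), 6 h after heat on the left and 12 h on the right. Genes are ordered by the deposited ratio of 44 °C to 42 °C at 6 h, lowest at the top, and at 6 h 3 genes, ZBTB4, ZBTB47 and ZBTB12, have the blue point to the right.

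Among the members that bind methylated DNA, ZBTB33 and ZBTB38 were lower at 44 °C than at 42 °C after 6 h, and ZBTB4 was not called. ZBTB33 is Kaiso, which binds methylated CpG and also p120 catenin, a partner of E-cadherin. Its intensity was 670.4, 1694 and 950.3 at 42 °C (0, 6 and 12 h) and 773, 546 and 445 at 44 °C (0, 6 and 12 h), against 928 in the control. The highest value was at 42 °C, 6 h and the lowest at 44 °C, 12 h, and the call was for 44 °C against 42 °C at 6 h, 3.10-fold lower (2.50-fold after quantile normalization). Its other probe set was lower there by 0.47 log2 units. At 44 °C, 12 h ZBTB33 stood 2.09-fold below the control as deposited, but under the other scalings the difference was -0.71 log2 units and was not called. ZBTB38, another methyl-CpG binding member, read 1206, 2431 and 1852 at 42 °C and 1171, 761 and 811 at 44 °C, against 1473 in the control. All 3 of its 42 °C arrays lay above all of its 44 °C arrays, and at 6 h it was 3.19-fold lower at 44 °C than at 42 °C. This gene had 3 other probe sets above the floor there, and all 3 were lower at 44 °C, by 1.49 to 2.23 log2 units. ZBTB4, which also binds methylated CpG, read 722, 698 and 912 at 42 °C and 1119, 760.3 and 395 at 44 °C, against 669 in the control. Its high value was at 44 °C, 0 h, and it was among 3 members whose intensity at 6 h, not below the floor, was higher at 44 °C than at 42 °C. Its other probe set had the opposite sign there, at -0.61 log2 units.

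ZBTB24 and ZBTB48 have roles at DNA repeats and chromosome ends, and their calls ran in different directions against the control. ZBTB24 is mutated in a form of the ICF syndrome, in which pericentromeric repeats lose DNA methylation. Its intensity was 74.9, 283 and 177 at 42 °C (0, 6 and 12 h) and 147, 68.5 and 38.8 at 44 °C (0, 6 and 12 h), against 126 in the control. Only the 42 °C, 6 and 12 h and 44 °C, 0 h arrays lay above the control. ZBTB24 fell 3.24-fold at 44 °C, 12 h against the control, and was 4.13-fold lower at 44 °C than at 42 °C at 6 h and 4.56-fold lower at 12 h. Both of its other probe sets had the same sign, but 1 of them differed by only -0.02 log2 units at 12 h. The value at 42 °C, 6 h was 2.25-fold that of the control as deposited and 1.94-fold after the median shift, so it was not called.

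ZBTB48, also named TZAP, binds telomere repeats and promotes their trimming. It read 25.2, 79.7 and 70.1 at 42 °C and 81.6, 44.1 and 17.2 at 44 °C, against 18.6 in the control. Only 2 arrays, 44 °C, 12 h and the control, were below the floor. It rose at least 3.73-fold at 42 °C, 6 h, at least 3.28-fold at 42 °C, 12 h, at least 3.82-fold at 44 °C, 0 h and at least 2.06-fold at 44 °C, 6 h. At 12 h it was at least 3.28-fold lower at 44 °C than at 42 °C. ZBTB48 thus made 4 of the 7 member calls above the control, and it has 1 probe set, so no other reading of it was at hand. These 4 calls share the single control reading of 18.6, so they are not separate observations.

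Of the members known from growth control, ZBTB10, ZBTB14 and ZBTB49 fell on 1 or 2 heated arrays, while ZBTB17, ZBTB7A and ZBTB2 had no call. ZBTB10 represses genes of the SP transcription factors. Its intensity was 91.3, 109 and 143 at 42 °C (0, 6 and 12 h) and 87.4, 51.7 and 42.3 at 44 °C (0, 6 and 12 h), against 127 in the control. The 3 lowest arrays were those of 44 °C, and it fell 2.45-fold at 44 °C, 6 h and 2.99-fold at 44 °C, 12 h, and was 3.38-fold lower at 44 °C than at 42 °C at 12 h. Of its 4 other probe sets above the floor at 44 °C, 6 h, 3 had the same sign and 1 differed by 0.09 log2 units the other way. At 12 h all of those above the floor had the same sign, 4 against the control and 3 against 42 °C. With the mean over all 7 probe sets of ZBTB10 none of these 3 differences reached 2-fold as deposited. That mean was below the floor at 44 °C, 6 and 12 h, so these differences are lower bounds.

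ZBTB14, first described as a repressor of the MYC promoter, was called lower than the control on 1 array. It read 31.4, 111 and 164 at 42 °C and 112, 62.2 and 68.3 at 44 °C, against 122 in the control. The value at 42 °C, 0 h was the lowest of the 7. ZBTB14 fell 3.89-fold there, and was 3.57-fold higher at 44 °C than at 42 °C at 0 h. Its other probe set was lower at 42 °C, 0 h by 1.34 log2 units and higher in the comparison of temperatures by 0.83. ZBTB49, an activator of the cell cycle inhibitor CDKN1A, read 25.7, 55.6 and 33.4 at 42 °C and 44.4, 21.2 and 23.8 at 44 °C, against 50.5 in the control. It fell at least 2.37-fold at 44 °C, 6 h, where it was just below the floor, and was at least 2.61-fold lower there than at 42 °C, 6 h.

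The members without a call included several of the best studied. ZBTB17 is MIZ1, the partner through which MYC represses CDKN2B and CDKN1A. It read 151, 236 and 241 at 42 °C and 275, 177 and 167 at 44 °C, against 154 in the control. Its other probe set read differently, with 3.92, 8.02 and 23.2 at 42 °C and 88.2, 58.6 and 37.8 at 44 °C, against 69.1 in the control. At 6 h that set was higher at 44 °C than at 42 °C, where the chosen set was lower, so the reading of ZBTB17 is uncertain. ZBTB7A, a repressor of glycolysis genes and of fetal globin, read 194, 284 and 259 at 42 °C and 316, 257 and 191 at 44 °C, against 192 in the control. At 44 °C, 0 h it stood 0.72 log2 units above the control as deposited. Its 3 other probe sets above the floor there were higher by 0.18 to 1.66. The chosen sets of ZBTB17 and ZBTB7A had their highest value at 44 °C, 0 h, the array with the highest overall level. ZBTB2, a repressor of the p53 pathway, read 343, 534 and 349.9 at 42 °C and 362, 259.6 and 269 at 44 °C, against 300.1 in the control, with its highest value at 42 °C, 6 h. ZBTB5, which represses CDKN1A and was singled out after its values were seen, read 211, 488 and 363 at 42 °C and 382, 216 and 187 at 44 °C, against 319 in the control. At 6 h ZBTB2 and ZBTB5 stood 2.06-fold and 2.26-fold lower at 44 °C than at 42 °C as deposited, and neither reached 2-fold under the other scalings.

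**Figure D4:**
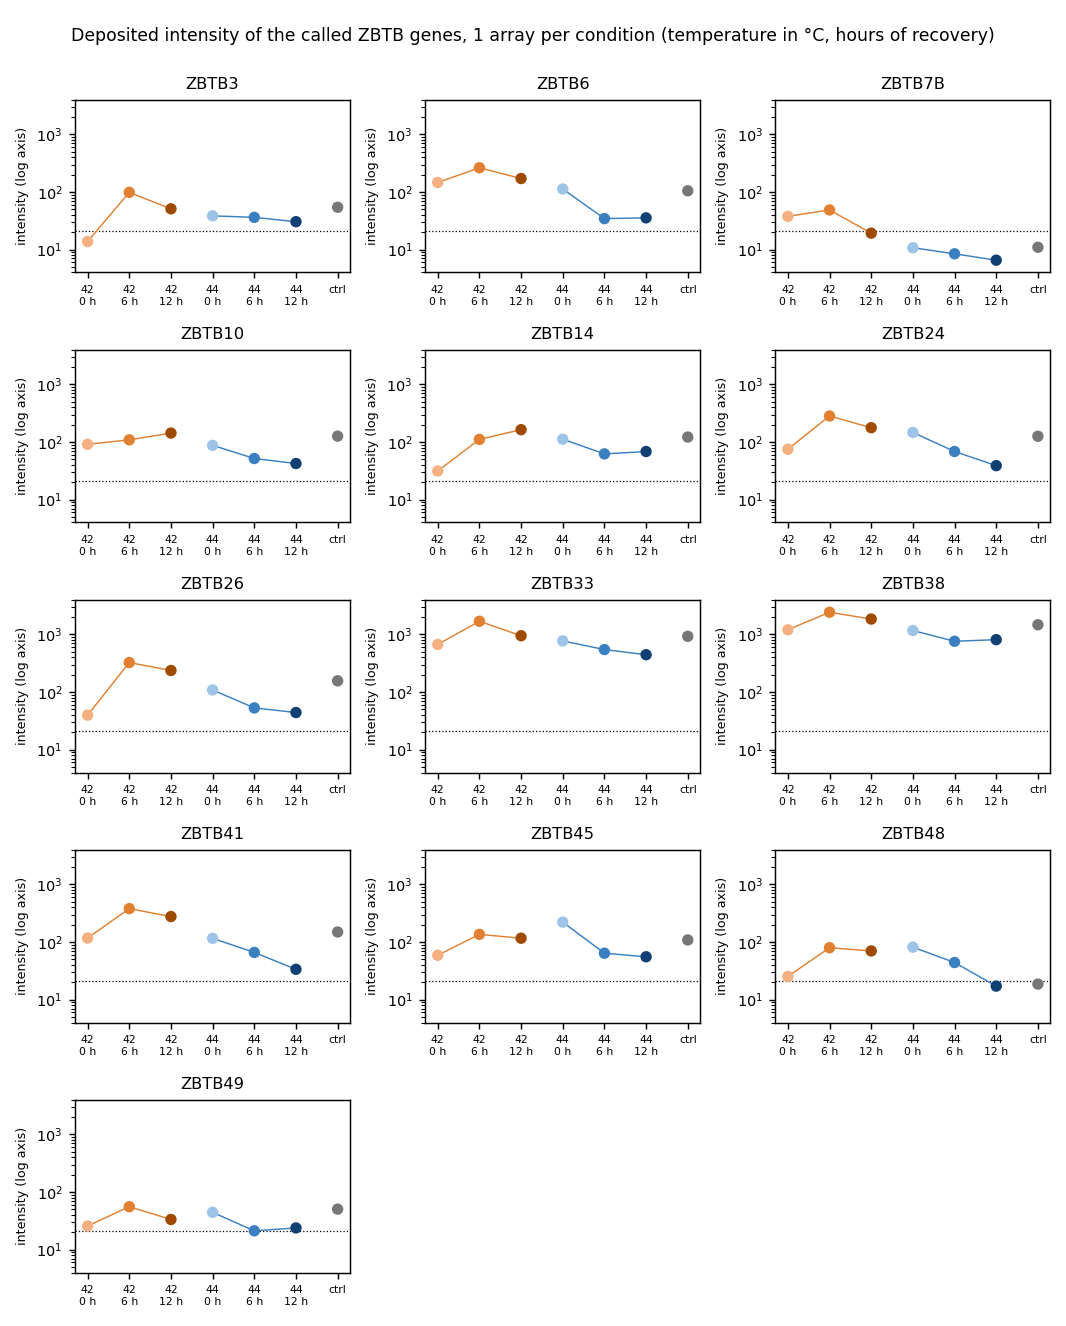
Deposited intensity on a log axis of the 13 ZBTB genes with a call, 1 panel per gene, on the 42 °C arrays (orange), the 44 °C arrays (blue) and the control array (grey). The dotted line is the floor of 21.4, and ZBTB6, ZBTB24, ZBTB26 and ZBTB41 show high values at 42 °C, 6 h beside low ones at 44 °C, 6 and 12 h.

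The 3 largest folds between the temperatures belonged to ZBTB41, ZBTB6 and ZBTB26, zinc finger proteins with few described functions. ZBTB6 and ZBTB26 are neighbours on chromosome 9, with no other coding gene between their starts in the RefSeq table. ZBTB26 intensity was 39.7, 325 and 237 at 42 °C (0, 6 and 12 h) and 109, 53.0 and 44.0 at 44 °C (0, 6 and 12 h), against 156 in the control. The arrays at 42 °C, 0 h and at 44 °C, 12 h were the lowest, and 42 °C, 6 h and 12 h were the highest and the only heated arrays above the control. It fell 3.94-fold at 42 °C, 0 h, 2.95-fold at 44 °C, 6 h and 3.55-fold at 44 °C, 12 h. Against 42 °C it was 6.14-fold lower at 44 °C at 6 h and 5.37-fold lower at 12 h. Its other probe set had the same sign in all 5 of these comparisons, with differences of -1.30 to -2.64 log2 units.

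ZBTB6 read 146, 264 and 171 at 42 °C and 113, 34.5 and 35.5 at 44 °C, against 105 in the control. Unlike ZBTB26 it was not low at 42 °C, 0 h, where it stood 1.39-fold above the control. ZBTB6 rose 2.51-fold at 42 °C, 6 h and fell 3.04-fold at 44 °C, 6 h and 2.95-fold at 44 °C, 12 h. The separation of temperatures was 7.64-fold at 6 h and 4.82-fold at 12 h, lower at 44 °C. At 6 h this was the largest of the 9 calls, also after quantile normalization (5.58-fold) and the median shift (6.27-fold).

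ZBTB41 was also highest at 42 °C, 6 h and lowest late after 44 °C. Its intensity was 117, 381 and 277 at 42 °C (0, 6 and 12 h) and 116, 66.0 and 33.6 at 44 °C (0, 6 and 12 h), against 149.5 in the control. It rose 2.55-fold at 42 °C, 6 h and fell 4.45-fold at 44 °C, 12 h. It was 5.77-fold lower at 44 °C than at 42 °C at 6 h, and 8.24-fold lower at 12 h, the largest of the 6 calls there. The difference of 2.26-fold below the control at 44 °C, 6 h missed the threshold after quantile normalization, at -0.99 log2 units. ZBTB6 and ZBTB41 have 1 probe set each.

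ZBTB3 and ZBTB45 each had 1 array that stood apart in the deposited values. ZBTB3 read 13.8, 98.6 and 51.0 at 42 °C and 38.5, 36.3 and 30.5 at 44 °C, against 54.3 in the control. It fell at least 2.54-fold at 42 °C, 0 h, the only array below the floor, and was 2.72-fold lower at 44 °C than at 42 °C at 6 h, with its other probe set of the same sign in both cases. ZBTB45, a regulator of glial differentiation in the mouse, read 58.9, 136 and 116 at 42 °C and 222, 63.9 and 55.5 at 44 °C, against 109 in the control, with 1 high array at 44 °C, 0 h. On that array, the one with the highest overall level, it was not called against the control. It was 3.77-fold higher there than at 42 °C, 0 h (2.57-fold after the median shift), where it stood below the control. Its probe set is of the x type, which can also match related transcripts, but its other probe set was higher as well, by 1.21 log2 units.

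ZBTB7B, ZBTB16 and ZBTB1 are known from lymphocytes or leukaemia, and of these 3 ZBTB7B had a call. ZBTB7B is ThPOK, the factor that commits thymocytes to the CD4 lineage. It read 37.8, 48.7 and 19.3 at 42 °C and 10.8, 8.44 and 6.54 at 44 °C, against 11.0 in the control, above the floor only at 42 °C, 0 and 6 h. It rose at least 2.28-fold at 42 °C, 6 h and was at least 2.28-fold lower at 44 °C than at 42 °C at 6 h. After the median shift both were at 2.00-fold, at the threshold, and its other probe set stayed below the floor on all 7 arrays. ZBTB16, or PLZF, which is fused to the retinoic acid receptor in a form of promyelocytic leukaemia, read 12.9, 13.7 and 9.83 at 42 °C and 19.9, 7.76 and 3.38 at 44 °C, against 24.8 in the control, and only the control array reached the floor. ZBTB1, needed for lymphocyte development, read 454, 857 and 683 at 42 °C and 429, 321 and 332 at 44 °C, against 632 in the control. It was 2.67-fold lower at 44 °C than at 42 °C at 6 h as deposited and missed the threshold after quantile normalization, at -0.99 log2 units.

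ZBTB43, ZBTB40 and ZBTB9 had no call but stood close to the threshold, and were singled out after their values were seen. ZBTB43 read 219, 247 and 162 at 42 °C and 114, 92.2 and 124 at 44 °C, against 159.6 in the control. At 6 h it was 2.68-fold lower at 44 °C than at 42 °C as deposited, and all 4 of its other probe sets above the floor had the same sign, but after quantile normalization the difference was -0.95 log2 units. At 0 h it was lower at 44 °C by 0.95 log2 units as deposited and by 1.56 and 1.49 under the other scalings. ZBTB40 read 97.4, 182 and 162 at 42 °C and 139, 69.8 and 97.0 at 44 °C, against 84.6 in the control, and was 2.61-fold lower at 44 °C than at 42 °C at 6 h as deposited (-0.94 after quantile normalization). ZBTB9 read 80.5, 311 and 234 at 42 °C and 212, 122 and 108 at 44 °C, against 183 in the control, with its lowest value at 42 °C, 0 h, 2.28-fold below the control but at -0.998 log2 units after quantile normalization, just short of the threshold. ZBTB11 read 886, 828 and 662 at 42 °C and 711, 464 and 460.2 at 44 °C, against 533 in the control, and 42 °C, 0 h was its highest array, where its other probe set had the opposite sign. With ZBTB33, ZBTB38, ZBTB4 and ZBTB1, ZBTB11 made up the 5 members whose probe sets had the highest mean signal.

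None of the other members that reached the floor had a call. ZBTB8A read between 167 and 547, ZBTB18 between 221 and 527, ZBTB44 between 159 and 335, and ZBTB21 between 168 and 340.3. In all 4 the lowest array was 44 °C, 12 h. ZBTB25 lay between 77.0 and 198 and ZBTB34 between 85.1 and 167, both lowest at 44 °C, 12 h, and ZBTB39 lay between 30.1 and 76.0, lowest at 42 °C, 0 h. ZBTB20 stayed between 26.5 and 48.0 in the chosen one of its 12 probe sets, and ZBTB47 between 23.5 and 49.3. Most values of the other ZBTB20 probe sets lay below the floor. ZBTB37, ZBTB22 and ZBTB12 reached the floor on 5, 2 and 3 arrays and did not exceed 38.6, 30.8 and 30.1. ZBTB7C, ZBTB8B, ZBTB32, ZBTB42 and ZBTB46 stayed below the floor on all 7 arrays, and their highest values were 16.6, 13.2, 6.04, 20.6 and 18.1.

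Where a called member had another probe set above the floor, the second reading mostly had the same sign. There were 36 calls in all, 9 higher and 27 lower, of which 10 are lower bounds. For 18 of the 36 calls at least 1 other probe set was above the floor, and in 17 of these all of them had the same sign. The exception was ZBTB10 at 44 °C, 6 h. Probe sets of 1 gene share the RNA, the labelling and the array, so this bears on the reading of the transcript and not on the condition.

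**Figure D5:**
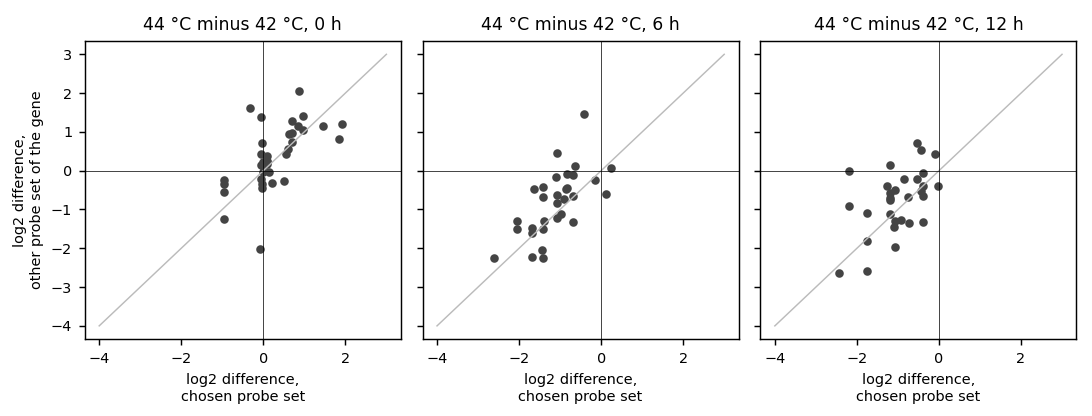
Log2 difference between 44 °C and 42 °C as deposited in the chosen probe set of a ZBTB gene (horizontal axis) and in each other probe set of that gene (vertical axis), at 0, 6 and 12 h, for probe sets above the floor on at least 1 of the 2 arrays. The grey line marks equal differences, and at 6 h most points lie in the lower left, among them all 3 other probe sets of ZBTB38 at -1.49 to -2.23.

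Of genes linked to the family, 2 of 7 relatives, 1 of 12 partners and 3 of 12 targets with a value had a call in any comparison, beside 18% of all genes. Of 8 BTB zinc finger genes under other symbols 7 had a value, all above the floor on some array, and 1 fell at 42 °C, 0 h and 1 was lower at 44 °C than at 42 °C at 6 h. These were HIC2, a relative of the tumour suppressor HIC1, 2.29-fold lower at 152 against 349 in the control, and MYNN (myoneurin), 2.87-fold lower at 314 against 902 at 42 °C. Their median log2 difference at 6 h between the temperatures was -0.40 as deposited. Of 15 corepressors, partners and CUL3 ligase genes 12 had a value, and none was called against the control. At 6 h GPS2, a subunit of the NCoR complex, was 2.02-fold higher at 44 °C than at 42 °C, and the list median was -0.18.

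Of 12 genes known as targets of members, all 12 had a value and the 3 with a call (25.0%) are near the 18% of all genes. CDKN2B, a cyclin kinase inhibitor that ZBTB17 activates, read 309.6, 165 and 155 at 42 °C and 264, 277 and 324 at 44 °C, against 152 in the control. It rose 2.03-fold at 42 °C, 0 h and 2.13-fold at 44 °C, 12 h, and was 2.09-fold higher at 44 °C than at 42 °C at 12 h. ASNS, the asparagine synthetase whose transcription needs ZBTB1, read 580.2, 617 and 1764 at 42 °C and 992, 521 and 433 at 44 °C, against 643 in the control, with 1 high array. It rose 2.74-fold at 42 °C, 12 h and was 4.07-fold lower at 44 °C than at 42 °C at 12 h. SLC2A3, a glucose transporter that ZBTB7A represses, read 25.8, 58.9 and 44.0 at 42 °C and 23.1, 30.1 and 10.8 at 44 °C, against 16.1 in the control. It rose at least 2.76-fold at 42 °C, 6 h. The other 9, among them CDCA7, CDKN1A and the SP genes, had no call. The median of the 12 was -0.10 at 44 °C minus 42 °C, 6 h, as deposited.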

How the data were processed

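Total RNA (5 µg per array, per the labels' protocols) from 7 conditions was read on Affymetrix U133 Plus 2.0 arrays. The authors deposited 1 intensity per probe set on a linear scale, and how they were computed from the probes is not stated in the labels or headers. Of 54675 probe sets, 41097 had 1 gene in the platform annotation, 1801 had several and 11777 were not listed there. Symbols were updated through the RefSeq GRCh38.p14 gene table, which held all 41 members.

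Log2 differences were computed from the deposited intensities as given, from quantile-normalized values, and from values shifted by array medians over 20902 probe sets. Under each scaling, values below 21.4, the pooled median of the deposited intensities, were set to it after the scaling and before the difference. Calls needed 2-fold under all 3, over the 14973 genes that reached the floor. With 1 array per condition, a difference between 2 arrays has no test, and no model of temperature over the 3 recovery times was fitted. All 7 values are given for members with a call, for the 5 with the highest mean signal and for ZBTB2, ZBTB4, ZBTB7A, ZBTB10, ZBTB16, ZBTB17 and ZBTB33, and members below the floor are named. Of the related gene lists, genes with a call are described with values. Members and lists were chosen with earlier results of these data known. The call procedure was run on simulated arrays with large added changes, in probe sets well above the floor and with little noise. That run does not bear on calls near 2-fold, on values near the floor or on the spread between real arrays. Python 3.11.15, pandas 2.3.3, numpy 2.4.6 and matplotlib 3.10.9 were used.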

Additional observations from a re-analysis of the deposited data

How the results depend on the processing

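Each condition had 1 array, so none could be left out, and no fit paired by recovery time was made. A call needs 2-fold under each scaling, so a scaling alone or the lack of a floor cannot undo one. With the mean of all probe sets of a gene, 5 of the 36 called differences fell below 2-fold as deposited. ZBTB10 had -0.54 at 44 °C, 6 h and 12 h against the control, and -0.59 at 12 h against 42 °C. ZBTB7B had 0 at 42 °C, 6 h against the control and at 44 °C against 42 °C at 6 h. More calls than these were lost under the other scalings. Between temperatures at 12 h, 4 members were called lower with this mean, against 6 with the chosen probe sets. The causes of the changes below were not tested.

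The counts of calls that moved most relative to their size were as follows. As deposited alone, the counts were 5 lower at 42 °C, 0 h, 7 higher at 42 °C, 6 h, 2 higher at 44 °C, 0 h and 9 lower at 44 °C, 12 h, and between temperatures 8 higher at 0 h, 18 lower at 6 h and 16 lower at 12 h. Quantile normalization alone gave 1 higher at 42 °C, 0 h, 1 lower at 44 °C, 0 h and 2 lower between temperatures at 0 h, where the median shift alone gave 1 lower. The mean of all probe sets gave 1 higher and 6 lower at 42 °C, 0 h, 1 lower at 42 °C, 6 h and 1 higher between temperatures at 6 h. With no floor there were 2 higher at 42 °C, 0 h, 2 higher and 1 lower at 42 °C, 12 h, 2 higher at 44 °C, 0 h, 3 higher at 44 °C, 6 h, and between temperatures 1 lower at 0 h and 1 higher at 6 h. Smaller relative changes included 13 lower between temperatures at 6 h under the median shift alone, against 9. With no floor they included 7 lower at 44 °C, 12 h, against 5, and 5 higher at 42 °C, 6 h, against 4. Keeping members by a mean at or above the floor gave 3 higher at 42 °C, 6 h and 8 lower between temperatures at 6 h.

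Member medians in log2 units moved too. Under quantile normalization they were -0.11, 0.34 and 0.11 at 42 °C (0, 6 and 12 h), -0.15, -0.35 and -0.33 at 44 °C, and 0, -0.61 and -0.43 between temperatures, so the sign at 44 °C, 0 h reversed. Under the median shift they were -0.11, 0.38 and 0.12 at 42 °C, -0.16 (reversed) and -0.41 at 44 °C, 0 and 12 h, and 0, -0.72 and -0.39 between temperatures. The mean of all probe sets gave 0.38 and 0.090 at 42 °C, 6 and 12 h, -0.36 and -0.50 at 44 °C, 6 and 12 h, and 0.26, -0.74 and -0.67 between temperatures. With no floor the medians between temperatures were 0.56 at 0 h and -1.08 at 12 h, a value past the -1.01 at 6 h. With members kept by a mean at or above the floor, an alternative chosen after seeing the data, they were 0.58 and -1.0.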

Other observations

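Where each member was highest or lowest over the 7 arrays does not depend on the 2-fold threshold. Of the 28 members never below the floor, 17 had their highest value at 42 °C, 6 h as deposited (60.7%), against 24.8% of the 10151 genes that met the same condition. After quantile normalization 14 did so (50.0%, against 17.1%), and after the median shift 15 did (53.6%, against 19.7%). ZBTB6, ZBTB24, ZBTB26, ZBTB33, ZBTB38 and ZBTB41 were among the 17 as deposited. The lowest value fell at 44 °C, 12 h in 16 of the 28 as deposited (57.1%, against 45.5% of all genes), and in 7 under each of the other scalings (25.0%, against 14.8% of all genes in quantile-normalized values and 14.4% in shifted ones). At 44 °C, 6 h it fell in 7 as deposited (25.0%, against 7.21%), 6 after quantile normalization (21.4%, against 7.69%) and 9 after the median shift (32.1%, against 8.45%). At 42 °C, 0 h it fell in 5 (17.9%, against 22.6%), 7 (25.0%, against 14.5%) and 6 (21.4%, against 13.6%). The array most often lowest thus depended on the scaling. In the control, 0 of the 28 had their highest value as deposited, near the 2.97% of all genes. These shares are descriptions of 7 arrays and were not tested.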
